A study of Mus musculus with 26 samples.

Results

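The 10 genes described here are specifiers and early markers of mouse germ cells: Prdm1, Prdm14, Tfap2c, Nanos3, Dnd1, Kit, Ifitm3, Ifitm1, Dazl and Ddx4. They were chosen by name, as genes known from germ cell formation, out of the 53978 genes of a dTAG13 experiment, the 50969 genes of an overexpression experiment and the 21275 genes of a testis experiment. All 10 were read in the first pair of experiments. In testis 6 were read, and Prdm1, Prdm14, Tfap2c and Ifitm1 were not analysed there. The series asks what Tex10, a nuclear protein studied in pluripotent cells, does in germ cell formation and in spermatogenesis.

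In the dTAG13 experiment, 129Sv/J cells were made in which Tex10 can be degraded by the small molecule dTAG13, which brings a tagged protein to the cell's breakdown machinery. Epiblast-like cells (EpiLCs), the formative state from which germ cells are induced in culture, were left untreated. Primordial germ cell-like cells (PGCLCs) were collected at day 2 and day 4 of induction with 500 nM dTAG13 or with the solvent DMSO. Each of these 5 groups had 2 libraries. The overexpression experiment followed 3 lines of 129Sv/J cells, 1 with an empty vector and 2 Tex10 overexpression clones, in the EpiLC state and on days 2, 4 and 6 of induction, with 1 library per line and stage. Whether the germ cell-like cells were sorted is not given in the sources used here. Each clone is a single line and there is 1 control line, so the stages stand in for replicates of the control. In the testis experiment 2 wildtype and 2 Tex10 conditional knockout (cKO) libraries came from C57BL/6N mice. The driver of the deletion and the age of the mice are not given in the sources used here.

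In the embryo, BMP and WNT signals act on a few epiblast cells and switch on the transcription factors PRDM1 (also called BLIMP1), PRDM14 and AP-2γ, the product of Tfap2c. These 3 repress the somatic program, restore expression of pluripotency genes and start the removal of epigenetic marks. The RNA-binding proteins NANOS3 and DND1 keep the new germ cells alive, the receptor KIT is needed for their migration and survival, and the membrane proteins IFITM3 and IFITM1 mark them early. DAZL, an RNA-binding protein, and DDX4, an RNA helicase also called VASA, mark later germ cells that have reached the gonad, and both genes are silenced by DNA methylation in most other cells.

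Depth ran from 5055362 to 8564563 recovered reads per library. Values are given as TMM-scaled CPM, that is, reads relative to a library size that was scaled by the trimmed mean of M values. A floor of 3 reads corresponds to 0.299 to 0.56 on this scale and covers counting error only. Log2 fold changes were taken after adding 1 to each value, which understates the change of low genes, and a gene was called at a limma adjusted p under 0.05. Nothing in the labels says that libraries of a group came from separate cultures or animals, so p-values may measure technical spread only. Tex10 mRNA was at 109.5 and 104.8 in day 4 DMSO cells and 76.8 and 72.8 with dTAG13, a treatment that acts on the protein. In day 2 cells it was at 106 and 113 with DMSO and 104 and 94.0 with dTAG13 (limma adjusted p 0.322). Its mRNA was at 145 to 213 in the empty-vector line and 329.8 to 654 in the clones, and at 79.1 and 44.1 in wildtype against 29.8 and 27.3 in cKO testis. All 6 knockout and treated libraries lay below their controls, by a narrow margin in day 2 cells, and all 8 clone libraries above theirs.

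Promoters are shown for Kit, which had with Prdm14 the largest falls under dTAG13 among the 10, and for Ddx4 and Dazl, the pair that marks later germ cells and was also read in testis. The 250 bases before the RefSeq start are given 5′ to 3′ on build GRCm38.p6, with motif matches in capitals. RefSeq gives Kit 2 starts a few bases apart, and the first is shown. Kit (forward strand, chr5:75574737-75574986), Ddx4 (reverse strand, chr13:112652311-112652560) and Dazl (reverse strand, chr17:50293621-50293870) read as follows.
Kit: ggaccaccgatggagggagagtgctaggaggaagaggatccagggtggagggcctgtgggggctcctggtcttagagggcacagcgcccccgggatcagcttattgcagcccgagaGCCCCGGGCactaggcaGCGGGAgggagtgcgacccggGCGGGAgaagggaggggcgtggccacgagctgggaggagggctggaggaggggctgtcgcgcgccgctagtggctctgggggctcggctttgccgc
Ddx4: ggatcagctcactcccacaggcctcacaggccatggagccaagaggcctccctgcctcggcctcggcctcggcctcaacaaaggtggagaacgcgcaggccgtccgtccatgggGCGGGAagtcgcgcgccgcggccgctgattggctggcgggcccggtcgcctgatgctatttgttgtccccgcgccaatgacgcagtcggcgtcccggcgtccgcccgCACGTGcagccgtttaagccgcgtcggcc
Dazl: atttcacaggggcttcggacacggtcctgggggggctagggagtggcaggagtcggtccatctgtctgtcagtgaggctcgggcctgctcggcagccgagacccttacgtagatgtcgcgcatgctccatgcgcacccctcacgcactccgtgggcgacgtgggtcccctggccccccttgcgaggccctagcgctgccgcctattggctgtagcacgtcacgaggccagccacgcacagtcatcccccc

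RefSeq gave 300-base promoters, from 250 bases before to 50 bases after the start, for 7 of the 10 genes. They were searched on both strands for an E-box (CACGTG), an E2F core motif (TCCCGC), a T-box core motif (TCACACCT), an AP-2 palindrome (GCCNNNGGC) and an octamer (ATGCAAAT). Matches do not overlap in the promoters shown. The Ddx4 promoter held an E-box that began 29 bases and an E2F core motif that began 136 bases before the start. The Kit promoter held 2 E2F core motifs, 117 and 96 bases before the start, and an AP-2 palindrome 134 bases before it. The Nanos3 promoter held an AP-2 palindrome, and no match was found in the promoters of Dazl, Prdm1, Ifitm1 and Ifitm3. Of all 32851 promoters of this length, 7.15% hold the E-box, 19.975% the E2F core motif, 16.6% the AP-2 palindrome, 1.28% the T-box core motif and 1.74% the octamer. CpG dinucleotides set Ddx4 and Dazl apart from most promoters, with 38 and 28 in 300 bases against a median of 7. Of all promoters, 95.6% have no more CpGs than Ddx4 and 87.1% no more than Dazl. Kit had 20, Prdm1 20, Ifitm1 and Ifitm3 5 each and Nanos3 3. A match of letters is a description and no evidence that a factor binds.

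Induction was read first in control cells of the dTAG13 experiment, where day 2 DMSO cells were set against untreated EpiLCs, so that the solvent differs too. Of the 10 genes, 7 rose and none fell: Prdm1, Prdm14, Tfap2c, Nanos3, Kit, Ifitm3 and Ifitm1. Over all 16605 genes tested, 26.2% were called, 11.5% higher and 14.7% lower. The median log2 fold change was 1.31 over the 10 genes and -0.03 over all genes. In the 3 lines of the overexpression experiment the same step called 9 of the 10, with those 7 higher and Dazl and Ddx4 lower. There the background was 46.3% of 15255 genes, 24.1% higher and 22.1% lower, and the medians were 1.86 over the 10 and 0.01 over all genes. The course of each gene is plotted for both experiments.

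**Figure D1:**
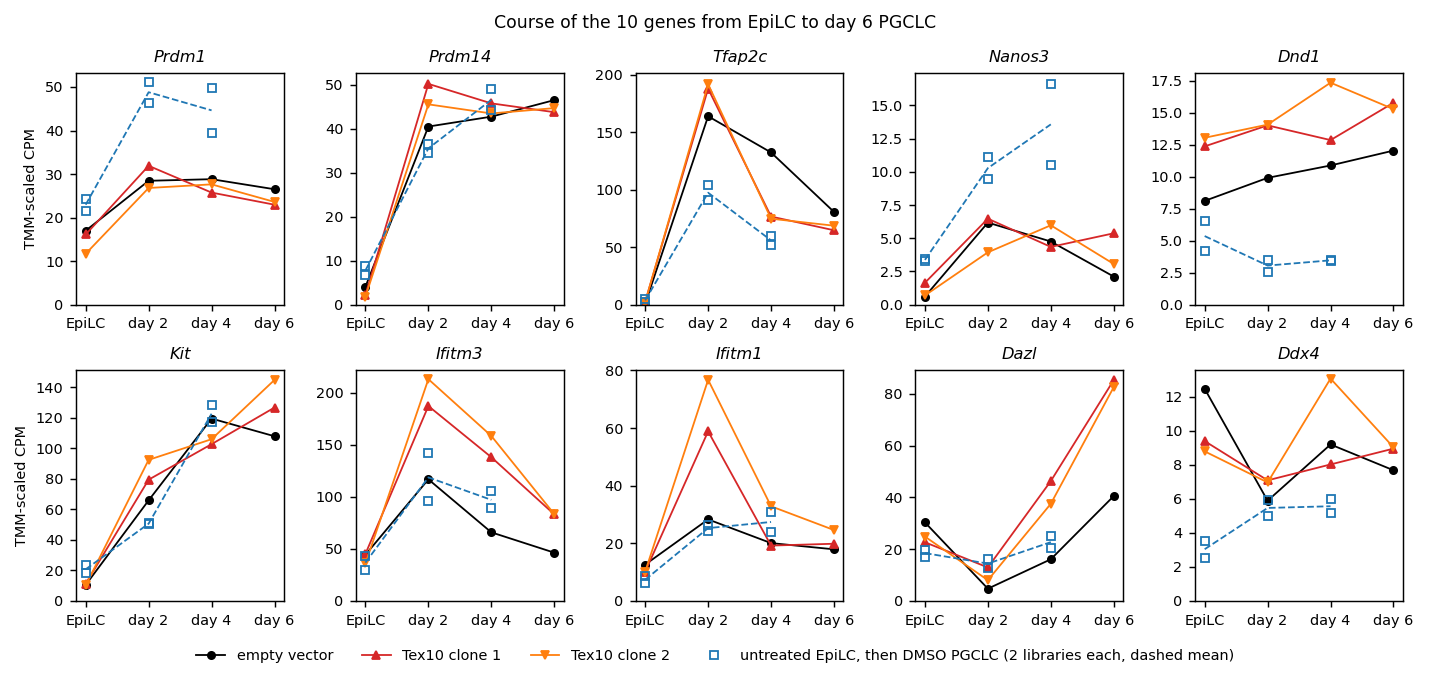
Level of each of the 10 genes (TMM-scaled CPM, linear axes from 0) from EpiLC to day 6 PGCLC. Filled symbols are the single libraries of the empty-vector line and the 2 Tex10 clones, open squares are the 2 libraries per group of untreated EpiLCs and DMSO PGCLCs, and the dashed line joins their means. Tfap2c peaked at day 2 in all 3 lines, Kit went from 10.2 to 11.3 in EpiLCs to at least 108 at day 6, and Dazl dipped at day 2 and was highest at day 6.

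Tfap2c (mm10, chr2:172549593-172558622, forward strand) had the largest rise of the 10. It started from 2.28 and 4.99 in EpiLCs, with 104 and 90.9 in day 2 DMSO cells and 59.8 and 51.8 in day 4 DMSO cells. The 3 day groups did not overlap. Its log2 fold change to day 2 was 4.47 (standard error 0.18, limma adjusted p 8.55e-14), the sixth largest of all genes tested in size. In the empty-vector line it went from 0.751 to 164, 132 and 80.6, and in clones 1 and 2 from 2.53 and 2.20 to 188 and 192, 76.5 and 74.7, and 64.6 and 68.6. In the lines, the EpiLC to day 2 change of 6.07 (standard error 0.19, limma adjusted p 1.13e-20) ranked first by size among the 15255 genes. From day 2 to day 4 it fell by 0.79 in DMSO cells (limma adjusted p 0.00991) and by 0.98 in the lines (limma adjusted p 0.000373). By line, that step was -0.31 in the empty-vector line and -1.28 and -1.35 in clones 1 and 2. The call in DMSO cells was lost without day 2 DMSO replicate 1 (limma adjusted p 0.108) and without day 4 DMSO replicate 2 (limma adjusted p 0.0706).

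Prdm14 and Prdm1 rose at the same step, and neither was called at a later one. Prdm14 started from 8.87 and 6.65 in EpiLCs, with 36.5 and 34.6 at day 2 and 49.0 and 44.2 at day 4 in control cells. It rose by 2.07 to day 2 (standard error 0.21, limma adjusted p 1.53e-07). In the lines it was at 1.79 to 4.06 in EpiLCs and between 40.5 and 50.2 in all 9 later libraries, and rose by 3.69 (limma adjusted p 3.04e-17). Prdm1 started from 21.5 and 24.4 in EpiLCs, with 51.2 and 46.4 at day 2 and 49.8 and 39.4 at day 4. Its rise to day 2 was smaller, 1.06 in control cells (limma adjusted p 0.000115) and 0.93 in the lines (limma adjusted p 4.38e-06). Prdm1 transcript was thus already present in EpiLCs, whereas Tfap2c was at most 4.99 there. From day 2 to day 4 of control cells the Prdm1 libraries overlapped and Prdm14 differed by 0.38 without overlap (limma adjusted p 0.356). Prdm1 lies at chr10:44437177-44528501 and Prdm14 at chr1:13113457-13127163 on mm10, both on the reverse strand.

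Kit, the receptor gene (mm10, chr5:75574916-75656722), was the only one of the 10 called higher at both steps in control cells. It started from 23.4 and 18.1 in EpiLCs, with 50.3 and 51.0 at day 2 and 128 and 117 at day 4, with no overlap between stages. Both steps had a log2 fold change of 1.26 (limma adjusted p 1.96e-05 and 0.000119). In the lines Kit rose by 2.77 to day 2 (limma adjusted p 5.53e-18) and by a further 0.47 to day 4 (limma adjusted p 0.003). This later step was 0.85 in the empty-vector line and smaller in clones 1 and 2, at 0.37 and 0.20. Its values at day 6 were 108, 127 and 145. Between day 2 and day 4 of control cells 2 of the 10 genes were called, Kit higher and Tfap2c lower, against a background of 5.52% (2.44% higher, 3.08% lower).

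Ifitm3 and Ifitm1, the membrane proteins, rose to day 2 and were lower afterwards in the lines. Ifitm3 started from 43.5 and 30.1 in EpiLCs, with 142 and 95.5 at day 2 and 105 and 88.8 at day 4 in control cells. It rose by 1.66 (limma adjusted p 1.85e-07). In the empty-vector line it went from 44.3 to 117, 65.9 and 46.4, so that day 6 was back near the EpiLC level. Over the 3 lines it fell by 0.56 from day 2 to day 4 (limma adjusted p 0.00818) and by 0.71 from day 4 to day 6 (limma adjusted p 0.00345). Ifitm1 started from 6.21 and 8.53 in EpiLCs, with 26.4 and 24.2 at day 2 and 30.8 and 24.0 at day 4. Its rise was 1.66 in control cells (limma adjusted p 4.51e-06) and 2.11 in the lines (limma adjusted p 5.67e-10). By line, the rise was 1.11 in the empty-vector line and 2.43 and 2.80 in clones 1 and 2. In the lines Ifitm1 fell by 1.08 from day 2 to day 4 (limma adjusted p 0.000172). That step was -0.48 in the empty-vector line and larger in clones 1 and 2, at -1.57 and -1.20. Both genes lie within a cluster of similar Ifitm genes on chromosome 7 (Ifitm3 at chr7:141009586-141010770 and Ifitm1 at chr7:140967221-140969825 on mm10), so reads could have been split between copies. The later Ifitm3 steps in the lines were not called with DESeq2 (adjusted p 0.164 and 0.0967) nor without line as a covariate (limma adjusted p 0.16 at each step).

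Nanos3 (mm10, chr8:84173731-84185217, where 2 microRNA genes lie inside it on the same strand) rose with the specifiers, at low level. It started from 3.30 and 3.43 in EpiLCs, with 9.43 and 11.1 at day 2 and 10.5 and 16.6 at day 4. The step to day 2 was 1.37 in control cells (standard error 0.25, limma adjusted p 0.000251) and 1.74 in the lines (limma adjusted p 8.14e-06). At day 6 the 3 lines had 2.11, 5.37 and 3.06, and no later step was called. Dnd1 did not pass the test at any step. It was at 4.18 and 6.54 in EpiLCs and between 2.58 and 3.52 in the 4 DMSO PGCLC libraries, and between 8.11 and 17.4 in the lines. Dnd1 overlaps Wdr55 on the other strand (mm10, chr18:36763671-36766214), and the use of strand in counting is not given in the sources used here, so its values are uncertain.

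Dazl (mm10, chr17:50279395-50293636) and Ddx4 (chr13:112598333-112652475), the late pair, did not follow the specifiers. In the lines Dazl fell from 30.3, 22.7 and 24.9 in EpiLCs to 4.74, 12.9 and 8.02 at day 2 (the empty-vector line first), then reached 16.1, 46.3 and 37.5 at day 4 and 40.5, 85.3 and 82.6 at day 6. Each line dipped at day 2 and was above its EpiLC level at day 6. The steps were -1.58, 1.81 and 1.09 (limma adjusted p 5.23e-07, 3.2e-07 and 0.00149). The last was not called with no filter on low genes, without the variance trend, with DESeq2 or without line as a covariate (adjusted p 0.0587, 0.122, 0.0662 and 0.0831). In control cells of the dTAG13 experiment Dazl was at 17.1 and 19.8, 12.6 and 16.3, and 25.0 and 20.4, and neither step was called. Ddx4 stayed between 5.89 and 13.1 in the lines and between 2.53 and 5.97 in these control cells. Its step to day 2 was -0.54 in the lines (limma adjusted p 0.0395), lost when any 1 line was left out (limma adjusted p 0.0606 to 0.311), and 0.69 in control cells (limma adjusted p 0.0616). From day 2 to day 4 of the lines 5 of the 10 were called (Kit and Dazl higher, Tfap2c, Ifitm3 and Ifitm1 lower) against a background of 23% (11.1% higher, 11.9% lower). From day 4 to day 6 there were 2, Dazl higher and Ifitm3 lower, against 6.88% (3.49% higher, 3.38% lower).

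Per kilobase of exon, Ifitm3 had the highest level of the 10 at day 2 in DMSO cells, 175 TMM-scaled CPM per kb. Tfap2c (26.4, libraries at 28.2 and 24.7) and Ifitm1 (23.1, libraries at 24.1 and 22.1) came next, close to each other but without overlap. Their difference was not tested. Prdm14 (13.9), Nanos3 (11.1), Prdm1 (8.75), Kit (5.69), Dazl (3.78), Ddx4 (1.81) and Dnd1 (1.26) followed. In EpiLCs the order was different: Ifitm3 led with 54.3, Dazl was the third with 4.84 and Tfap2c last with 0.988, next to Ddx4 with 1.01.

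Other genes of the pathway, from lists written for this work with results of these data known, moved as follows at the step to day 2 in control cells. Of 15 inducing signals and effectors 5 rose and 6 fell, and Id1, a direct BMP target, rose by 4.14 (limma adjusted p 1.88e-13). The T-box factor gene Eomes fell by 3.20 (limma adjusted p 9.25e-11), and Otx2, a homeobox gene of the epiblast, fell by 3.18 (limma adjusted p 5.37e-13). Of 19 other primordial germ cell genes 7 rose and 2 fell, among them Rhox9, an X-linked homeobox gene (3.63, limma adjusted p 3.07e-09), Tbx3, a T-box factor (2.77, limma adjusted p 5.28e-14), and Tcl1, a cofactor of AKT (2.74, limma adjusted p 8.72e-08). Of 10 naive pluripotency markers 9 rose and none fell, with a median of 1.28. All 10 formative epiblast markers fell, with a median of -2.90. Among them Fgf5 fell by 6.00 (limma adjusted p 1.31e-11). Of 10 tested genes known to be lowered on germ cell entry 8 fell and 1 rose. EpiLC libraries had summed formative markers of 2673 to 3004 against 428 to 459.9 at day 2. Summed naive markers were at 1040 to 1118 in EpiLCs against 2852 to 2971 at day 2. Since results were known when the lists were written, these sums describe the labelled states and are no independent check of them.

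dTAG13 was compared with DMSO at each day to ask how the genes respond when Tex10 is to be removed. At day 2, 6 of the 10 were called: Prdm1, Prdm14, Kit, Ifitm3 and Ifitm1 lower and Tfap2c higher. The background was 33.6% of genes, 13.7% higher and 19.9% lower. At day 4 there were 6 again, with Prdm1, Prdm14, Kit and Ifitm1 lower and Tfap2c and Dazl higher, against 41.8% (15.8% higher, 26% lower). The median over the 10 was -0.44 at day 2 and -0.52 at day 4, against -0.09 and -0.13 over all genes. Median-ratio scaling moved the median of all genes to 0.00094 and -0.02 and the share of calls that were higher at day 2 from 40.7% to 53.4%, while at day 4 it went from 37.8% to 50.2%. All 10 genes kept their direction at both days under that scaling, and the fall of Ifitm3 at day 2 lost its call. The values by library are plotted for the 5 groups.

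**Figure D2:**
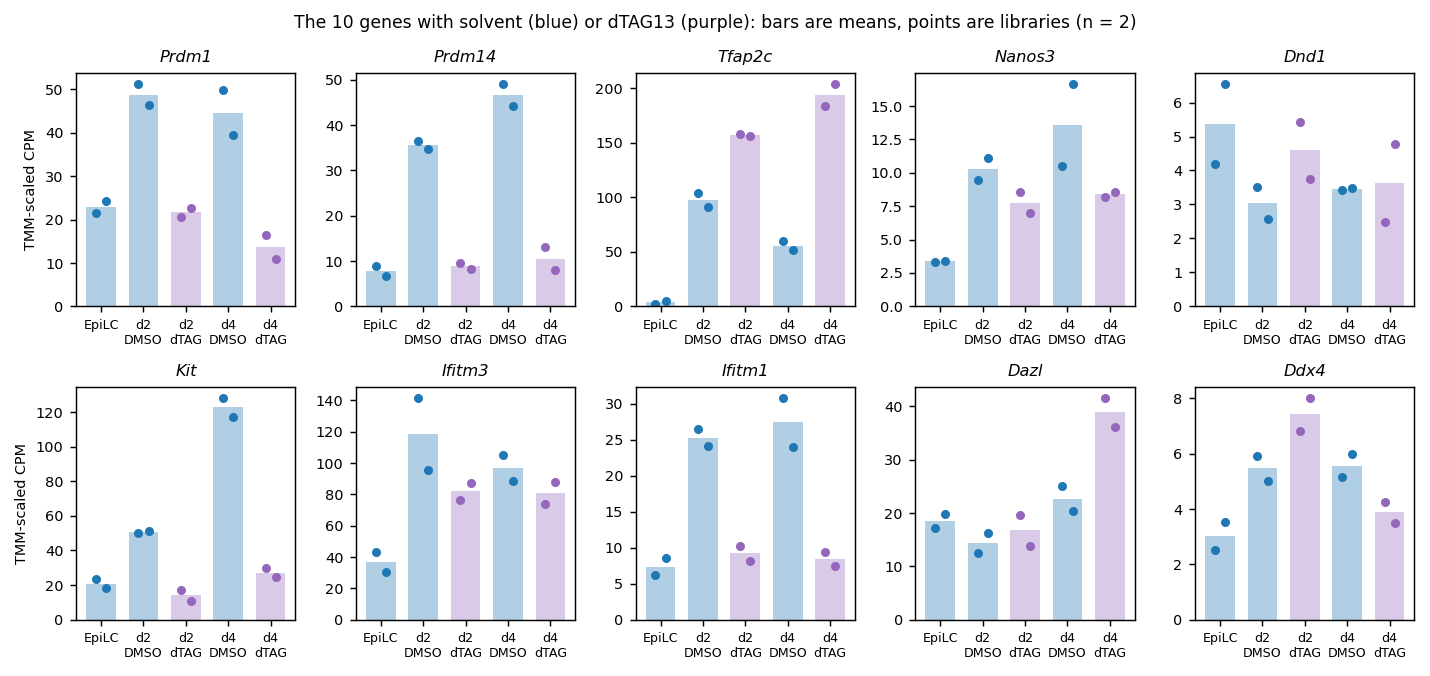
Level of each gene (TMM-scaled CPM, linear axes from 0) in EpiLCs and in day 2 and day 4 PGCLCs with DMSO (blue) or dTAG13 (purple). Bars are means and points the 2 libraries. Prdm14, Kit and Ifitm1 stay near their EpiLC level with dTAG13, whereas Tfap2c is above its DMSO level at both days.

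Of the transcription factors, Prdm1 and Prdm14 fell while Tfap2c rose. Prdm14 was at 9.48 and 8.29 with dTAG13 at day 2, against 36.5 and 34.6 with DMSO. At day 4 it was at 13.1 and 7.95 against 49.0 and 44.2. The treated libraries thus stayed in or near the range of EpiLCs, 6.65 to 8.87. It fell by 1.89 at day 2 (standard error 0.21, limma adjusted p 5.4e-07) and in day 4 cells fell by 2.08 (standard error 0.21, limma adjusted p 6.25e-08). Prdm1 was at 20.7 and 22.7 against 51.2 and 46.4 at day 2, and at 16.4 and 10.965 against 49.8 and 39.4 at day 4. All 4 treated libraries were below every DMSO library, and those of day 4 were also below both EpiLC libraries. It fell by 1.13 (standard error 0.18, limma adjusted p 4.09e-05) and fell by 1.65 (standard error 0.18, limma adjusted p 1.62e-07).

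Tfap2c was at 158 and 157 with dTAG13 against 104 and 90.9 with DMSO at day 2, and at 183 and 204 against 59.8 and 51.8 at day 4. With DMSO it was lower at day 4 than at day 2, whereas both dTAG13 libraries of day 4 lay above both of day 2. On the log2 scale the rise at day 2 was 0.69 (standard error 0.18, limma adjusted p 0.00551) and the day 4 value 1.78 (standard error 0.18, limma adjusted p 7.5e-08). The difference between days, 1.09, was called (standard error 0.26, limma adjusted p 0.0351), as the only one of the 10 against a background of 1.25%. That call was lost in 7 of the 8 fits that left out 1 library (limma adjusted p up to 0.203). At day 2 the call on Tfap2c was lost without DMSO replicate 2 (limma adjusted p 0.0539), with no filter on low genes (limma adjusted p 0.0768) and without the variance trend (limma adjusted p 0.0739). In all 4 dTAG13 libraries the level was far above that of EpiLCs, so the rise from EpiLCs took place with dTAG13 too.

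The surface genes Kit and Ifitm1 fell by amounts close to those of the Prdm genes. Kit was at 17.4 and 10.6 against 50.3 and 51.0 at day 2, and at 30.1 and 24.5 against 128 and 117 at day 4. It fell by 1.82 (standard error 0.18, limma adjusted p 1.21e-07) and fell by 2.14 (standard error 0.18, limma adjusted p 5.44e-09), close to that of Prdm14 at each day. Kit was at 23.4 and 18.1 in EpiLCs, so all dTAG13 libraries of day 2 lay below that range and those of day 4 just above it. Ifitm1 was at 10.3 and 8.16 against 26.4 and 24.2 at day 2, and at 9.39 and 7.47 against 30.8 and 24.0 at day 4. The treated libraries were close to the EpiLC values of 6.21 and 8.53. It fell by 1.37 (limma adjusted p 4.08e-05) and by 1.59 (limma adjusted p 3.76e-06).

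Ifitm3 had a smaller change than Ifitm1, a difference that was not tested. It was at 76.3 and 87.5 against 142 and 95.5 at day 2, and at 74.1 and 88.2 against 105 and 88.8 at day 4. At each day both treated libraries were below both controls, by a narrow margin in 1 pair at day 4. It fell by 0.51 at day 2 (standard error 0.17, limma adjusted p 0.0259) and its change at day 4 was -0.26 (limma adjusted p 0.241). The day 2 call was lost with median-ratio scaling (limma adjusted p 0.0923), with edgeR (adjusted p 0.0694), with DESeq2 (adjusted p 0.0908), and when any 1 of DMSO replicate 1, dTAG13 replicate 1 and dTAG13 replicate 2 was left out (limma adjusted p 0.427, 0.183 and 0.0517). In the authors' deposited table its FDR at day 2 is 0.693. Among the family, Ifitm2 fell by 0.73 at day 2 (limma adjusted p 0.000471) and Ifitm5 by 0.96 (limma adjusted p 0.0262).

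Of the genes for RNA-binding proteins and the helicase, Dazl was called at day 4 and the others at neither day. Nanos3 was at 8.55 and 6.96 against 9.43 and 11.1 at day 2, and at 8.21 and 8.58 against 10.5 and 16.6 at day 4. Its libraries did not overlap at either day, but its changes of -0.37 and -0.60 did not pass (limma adjusted p 0.269 and 0.0558). At day 4 it passed without DMSO replicate 1, a fit that keeps only the higher DMSO library, at 16.6. DMSO replicate 1, at 10.5, lay nearer to the treated libraries. Dazl was at 19.6 and 13.9 against 12.6 and 16.3 at day 2, where the groups overlap, and at 41.6 and 36.2 against 25.0 and 20.4 at day 4, where they do not. It rose at day 4 by 0.76 (standard error 0.19, limma adjusted p 0.00303), and the authors' deposited table gives a log2 fold change of 0.78 with an FDR of 0.0204. Ddx4 was at 6.84 and 8.03 against 5.91 and 5.02 at day 2 and at 4.25 and 3.50 against 5.16 and 5.97 at day 4. Its treated libraries were above the controls at day 2 and below them at day 4, with changes of 0.38 and -0.43 that did not pass (limma adjusted p 0.284 and 0.205). For Dnd1 the changes were 0.46 and 0.01 (95% interval -0.63 to 0.65 at day 4), and neither passed (limma adjusted p 0.271 and 0.985).

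**Figure D3:**
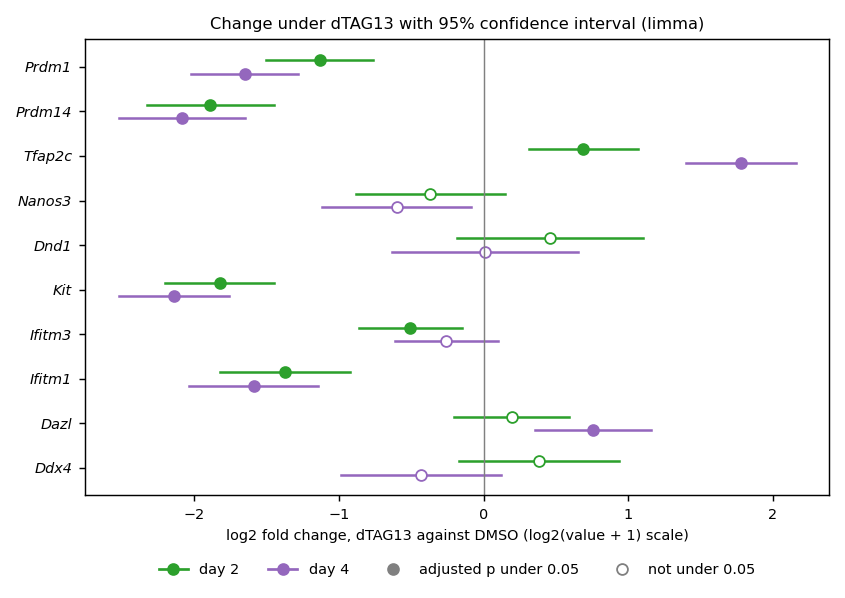
Log2 fold change of each gene under dTAG13 against DMSO at day 2 (green) and day 4 (purple), on the log2(value + 1) scale, from 2 libraries per group. Lines are 95% confidence intervals from limma, filled points passed the test over all genes and open points did not. Prdm1, Prdm14, Kit and Ifitm1 lie left of 0 at both days, Tfap2c lies right of it and moves from 0.69 to 1.78.

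Neighbouring genes were read on the same chromosomes. The 40 tested genes nearest to each of the 10, 20 on each side, had median changes between -0.26 and -0.0049 at day 2 and between -0.37 and -0.0063 at day 4. The neighbours of Prdm14 were at -0.19 at both days, those of Kit at -0.12 and -0.24, and those of Tfap2c at -0.08 and -0.28. Between 10 and 19 of the 40 were called at day 2, and between 8 and 24 at day 4.

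Other lists were read beside the members. Of 19 other primordial germ cell genes, 2 rose and 14 fell at day 2 and 2 rose and 12 fell at day 4, with medians of -0.70 and -0.76. Rhox9 fell by 2.84 at day 2 (limma adjusted p 1.05e-07) and Tcl1 by 3.23 at day 4 (limma adjusted p 3.22e-09). In contrast, Fut4 rose by 1.79 and 1.488 (limma adjusted p 0.000471 and 0.00177). Of 15 inducing signals and effectors, 6 rose and 1 fell at day 2 and 7 rose and 1 fell at day 4. Wnt3, which encodes the ligand that primes the epiblast, rose by 2.65 and 3.24 (limma adjusted p 3.95e-06 and 1.25e-07), Bmp8b, a BMP ligand, rose by 2.77 and 3.10 (limma adjusted p 1.4e-07 and 1.24e-08), and Bmp4 fell by 1.62 at day 4 (limma adjusted p 8.37e-07). Of 12 partners and ligands of the 10 genes, 1 rose at each day, Cbfa2t3, a corepressor of the ETO family (2.05 and 2.31, limma adjusted p 1.61e-05 and 1.86e-06), and 5 and 7 fell. Of 10 tested genes lowered on germ cell entry, 3 rose and 4 fell at day 2 and 3 rose and 3 fell at day 4. Of 17 late germ cell genes, 3 rose and 3 fell at day 2 and 2 rose and 5 fell at day 4. Stra8, the retinoic acid target of meiotic entry, fell by 1.21 and 1.63 (limma adjusted p 0.0061 and 0.000335). In the same list Taf7l, a TFIID subunit of male germ cells, rose by 1.84 and 1.404 (limma adjusted p 6.86e-05 and 0.000752), and Hormad1, a protein of meiotic chromosome axes, rose by 0.93 and 1.54 (limma adjusted p 0.00512 and 2.63e-05).

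Markers of other cell states moved with dTAG13 as well. Lists share genes, so their counts are not separate. Nanog and Tbx3 are naive markers and among the other primordial germ cell genes. Fgf5 and Pou3f1 are formative markers and among the genes lowered on germ cell entry. Hand1 is a marker of trophoblast and of mesoderm and endoderm, and Gata2 of trophoblast and of endothelium and blood. Of 10 naive pluripotency markers 8 fell at each day and none rose (medians -0.90 and -1.10). Their summed level was 2852 to 2971 with DMSO and 1641 to 1797 with dTAG13 at day 2, and 3881 to 4298 against 2161 to 2317 at day 4. Of 10 formative epiblast markers 1 rose and 5 fell at day 2, and 2 rose and 4 fell at day 4. Of 8 trophoblast and extraembryonic ectoderm markers tested 5 rose at day 2, and at day 4 7 rose and 1 fell. Their sum over 9 genes was 78.2 to 83.5 with DMSO and 197 to 289 with dTAG13 at day 2, and 59.8 to 64.9 against 149 to 237 at day 4, with no marker at 0. Tfap2c, which rose, is also a gene of trophoblast. Hand1 rose by 2.06 and 2.60 (limma adjusted p 9.51e-06 and 2.15e-07) and Krt18, an epithelial keratin, by 2.13 and 2.88 (limma adjusted p 1.59e-06 and 1.03e-08). Summed mesoderm and endoderm markers (11 genes, 4 tested, of which 2 rose at day 2 and 3 at day 4) were at 9.68 to 13.8 against 32.8 to 42.9 at day 2 and 8.59 to 10.6 against 35.9 to 39.9 at day 4. Endothelium and blood markers (10 genes, Hba-x at 0) were at 34.1 to 36.7 against 60.6 to 70.2 and 11.8 to 16.4 against 60.6 to 62.1. Xist, the RNA that coats the inactive X chromosome, was at 5.41 and 5.02 with DMSO against 250.2 and 253 with dTAG13 at day 2, and at 1.72 and 2.99 against 94.2 and 115 at day 4. In untreated EpiLCs it was at 129 and 138. In the overexpression experiment the 3 lines had 114 to 129.6 in EpiLCs and 1.21 to 5.32 at the PGCLC stages, so PGCLC libraries without dTAG13 were low in both experiments and the dTAG13 libraries were not. It rose by 5.35 and 4.99 (limma adjusted p 1.77e-15 and 1.22e-15). The part of these other states, and of what moved Xist, in the changes of the 10 genes was not tested. In bulk RNA, fewer cells of a type and less RNA per cell cannot be told apart.

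The overexpression clones were compared with the empty-vector line over all 4 stages, with stage as a covariate. This counts the stages of a line as replicates, and the spread between control lines was not measured. A trait of this 1 control line therefore cannot be told apart from an effect of Tex10 in these p-values. Of the 10 genes, 3 rose and none fell, against a background of 8.76% (4.54% higher, 4.22% lower): Dazl, Ifitm3 and Dnd1. The median over the 10 was 0.19 and over all genes 0.0056. Whether the difference at the 3 PGCLC stages was unlike that in EpiLCs was tested as an interaction, which called 4 of the 10 against a background of 1.95%. Dazl, Ifitm3 and Prdm14 had a higher and Tfap2c a lower difference at the PGCLC stages than in EpiLCs. For Ifitm1 it was 0.89 (limma adjusted p 0.0803). This interaction rests on 1 empty-vector library in EpiLCs, whose own variation was not measured and is assumed to be like that within the pairs of clones, so its p-values hold only under that assumption. None of the 4 calls held without the variance trend, a setting under which 0 of all 15255 genes were called. With edgeR 2 held (Ifitm3 and Dazl), and 1 held with DESeq2 (Ifitm3), which gave Prdm14 and Dazl no adjusted p. Within a single stage no test was made here. The authors deposited a comparison for each stage, each with 1 empty-vector library as control. At day 4 their log2 fold change is -0.81 for Tfap2c, 1.17 for Ifitm3 and 1.38 for Dazl. For Dnd1 it is 0.65 in EpiLCs and 0.50, 0.47 and 0.37 at days 2, 4 and 6.

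**Figure D4:**
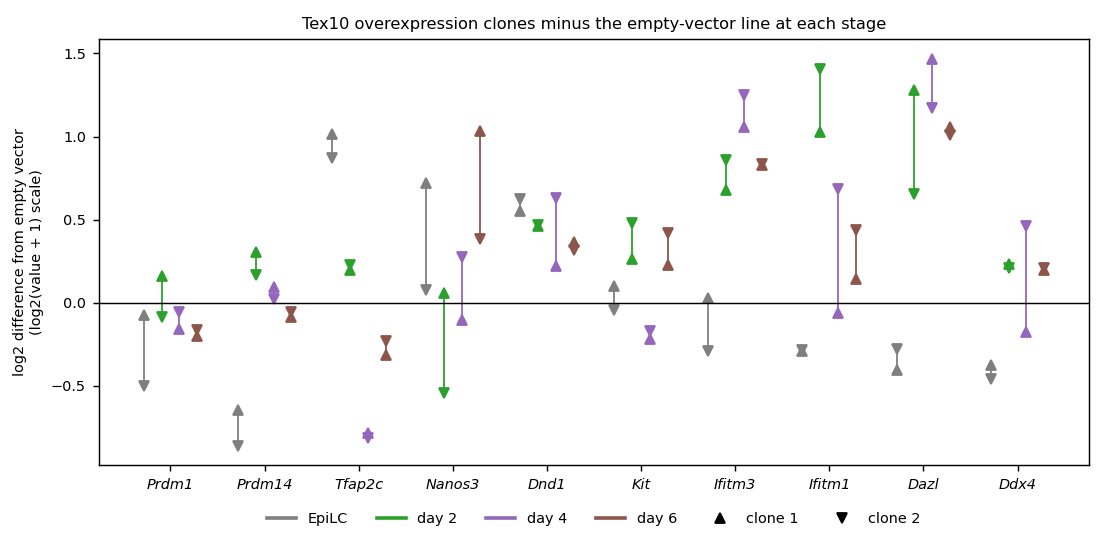
Difference of clone 1 (upward triangle) and clone 2 (downward triangle) from the empty-vector line at each stage, on the log2(value + 1) scale, with stages in 4 colours and a line joining the clones. Dazl and Ifitm3 are above 0 in both clones at all PGCLC stages and Dnd1 at all 4 stages, whereas Tfap2c goes from above 0 in EpiLCs to below 0 at day 4 and day 6.

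Dazl showed the largest difference of the 10. In EpiLCs the clones had 22.7 and 24.9 against 30.3 in the empty-vector line. At day 2 they had 12.9 and 8.02 against 4.74, at day 4 46.3 and 37.5 against 16.1 and at day 6 85.3 and 82.6 against 40.5. Both clones were thus below the vector line in EpiLCs and above it at each later stage. Over all stages Dazl rose by 0.74 (standard error 0.16, limma adjusted p 0.00266). The interaction was 1.45 (standard error 0.24, limma adjusted p 0.000412). With DESeq2 the adjusted p over all stages was 0.0924, and without clone 1 the limma adjusted p was 0.0547.

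Ifitm3 had 45.2 and 36.0 in the clones against 44.3 in the vector line in EpiLCs. It had 187 and 213 against 117 at day 2, 138 and 158 against 65.9 at day 4 and 83.2 and 83.4 against 46.4 at day 6. The clones overlapped the control value in EpiLCs and lay above it at all 3 PGCLC stages. It rose by 0.66 over all stages (standard error 0.11, limma adjusted p 2e-04), and the interaction was 1.05 (limma adjusted p 2.33e-05). Ifitm1 was at 58.9 and 76.7 against 28.3 at day 2, at 19.2 and 32.9 against 20.1 at day 4 and at 19.9 and 24.6 against 17.9 at day 6. Its difference over all stages was 0.38 (limma adjusted p 0.131), and over the PGCLC stages alone it passed, at 0.61 (limma adjusted p 0.00955).

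Dnd1 was above the vector line in 8 of 8 clone libraries, as the only one of the 10. The share of all tested genes with that pattern was not counted, so it does not set Dnd1 apart. Dnd1 had 12.4 and 13.05 against 8.11 in EpiLCs, 14.0 and 14.1 against 9.91 at day 2, 12.9 and 17.4 against 10.9 at day 4 and 15.8 and 15.3 against 12.05 at day 6. It rose by 0.46 (standard error 0.13, limma adjusted p 0.024). Without clone 1 the limma adjusted p was 0.0955 and without clone 2 it was 0.236. Over the PGCLC stages alone Dnd1 was not called. The doubt about reads of Wdr55 holds here as well.

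Among the transcription factors no call was made over all stages. Prdm1 was within 11.7 to 31.9 in the clones and 17.0 to 28.8 in the vector line, with a difference of -0.13 (95% interval -0.35 to 0.08, limma adjusted p 0.503). Prdm14 differed by -0.13 (95% interval -0.38 to 0.11, limma adjusted p 0.571). It had 2.24 and 1.79 against 4.06 in EpiLCs and 50.2 and 45.6 against 40.5 at day 2. At day 4 it had 45.8 and 43.5 against 42.8, and at day 6 43.8 and 44.7 against 46.5, so that the clones were below the vector line in EpiLCs and at day 6. Its interaction was 0.83 (limma adjusted p 0.0459). The mean difference of the clones was -0.75 in EpiLCs, from 13 to 27 reads per library. At days 2, 4 and 6 it was 0.23, 0.06 and -0.07, so the interaction of Prdm14 came mainly from EpiLCs. Tfap2c had 2.53 and 2.20 against 0.751 in EpiLCs, 188 and 192 against 164 at day 2, 76.5 and 74.7 against 132 at day 4 and 64.6 and 68.6 against 80.6 at day 6. Both clones were above the vector line in EpiLCs and at day 2 and below it at day 4 and day 6. Its difference over all stages was 0.02 (limma adjusted p 0.955) and the interaction -1.23 (standard error 0.17, limma adjusted p 2.33e-05). EpiLC values of Tfap2c rest on few reads, and with edgeR the adjusted p of this interaction was 0.0526. Kit (0.13, limma adjusted p 0.369), Nanos3 (0.24, limma adjusted p 0.563) and Ddx4 (0.04, limma adjusted p 0.924) were not called.

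Neighbouring genes of the 10 had median differences between -0.04 and 0.14 in the clones. Of 20 other primordial germ cell genes 2 rose and none fell, and Prmt5, a methyltransferase that partners PRDM1, rose by 0.27 (limma adjusted p 0.00932). Of 16 inducing signals and effectors 1 fell, Wnt3 (-1.07, limma adjusted p 0.0016). Of 10 formative epiblast markers 3 fell and none rose (median -0.20). Of 10 naive pluripotency markers 3 rose and 1 fell, the latter Zfp42 (-0.37, limma adjusted p 0.00105), and their sum was 4549.7 to 4649 in the clones against 4076 at day 2, 5723 to 5917 against 5259 at day 4 and 6024 to 6054 against 6171 at day 6. Summed trophoblast markers were at 59.3 to 63.6 in the clones against 43.8 at day 2 and at 56.6 to 59.6 against 70.6 at day 6. Of 6 tested mesoderm and endoderm markers 2 fell, among them Pdgfra (-0.77, limma adjusted p 0.0299), and the sum over the list of 11 was 18.7 to 23.7 in the clones against 34.3 at day 4. The part of these markers in the differences was not tested.

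For 5 of the genes, the most similar patterns were sought among 10940 genes, by the lower of 2 Pearson correlations of log2(value + 1), one over the 12 overexpression and one over the 10 dTAG13 libraries. These are descriptions over libraries that share stages and depth. Prdm14 was closest to Zfp42 (0.98 and 0.99), Nanog (0.99 and 0.98) and Esrrb (0.98 and 0.97), all markers of naive pluripotency. Kit was closest to Cobl (0.98 and 0.99), Tle5 and Dlgap3, Tfap2c to Map4k4 (0.98 and 0.97), Id1 (0.97 and 0.98) and Acbd4, Prdm1 to Neu1, Capn5 and Ano9, and Nanos3 to Zfp976, Septin9 and Mroh1. Among the 10 themselves, Prdm14 and Kit had correlations of 0.97 over the overexpression and 0.92 over the dTAG13 libraries. For Prdm14 and Tfap2c these were 0.95 and 0.20, so the pair was closely correlated over the lines and hardly over the dTAG13 libraries.

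In testis, cKO was set against wildtype. Of the 6 genes with a row, 2 rose, Kit and Dazl, and none fell, against a background of 29.1% of 20658 genes (16.1% higher, 13.1% lower). The median over the 6 was 0.59 and over all genes 0.01. Ddx4 and Dazl were the highest per kilobase in wildtype testis, at 83.6 and 27.4, while Ifitm3 was at 5.84, Dnd1 at 3.69, Kit at 1.63 and Nanos3 at 0.981. Between tables normalized separately no test was made, and the order of these 6 genes differs. Per kilobase, Ddx4 was below Ifitm3, Nanos3, Kit and Dazl at day 2 with DMSO, and above them all in testis.

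**Figure D5:**
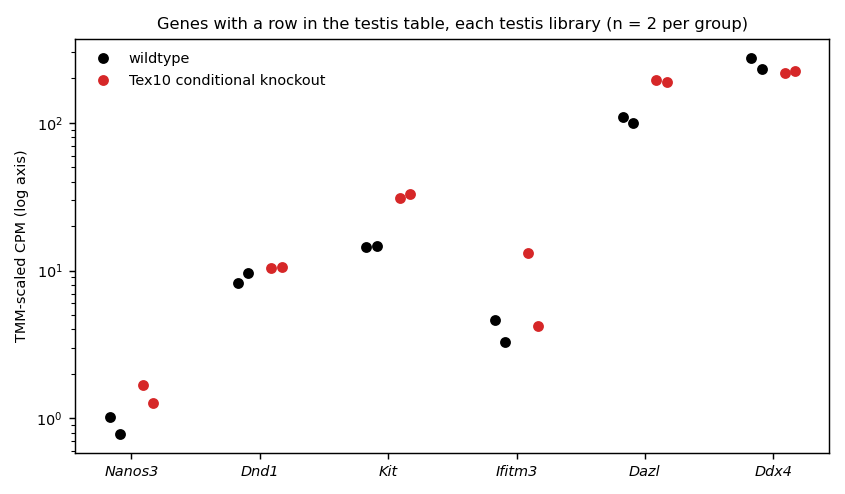
Level of the 6 genes with a row in the testis table (TMM-scaled CPM, log axis) in 2 wildtype (black) and 2 Tex10 cKO (red) libraries, each point a library. Kit and Dazl are higher in both cKO libraries, and 1 cKO library stands above the others for Ifitm3, at 13.1.

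Kit was at 30.9 and 32.8 in cKO against 14.4 and 14.6 in wildtype testis, and Dazl at 195 and 189 against 109 and 101. The groups were well apart for both. Kit rose by 1.08 (standard error 0.18, limma adjusted p 0.000736) and Dazl by 0.87 (standard error 0.12, limma adjusted p 0.000222). Ddx4 was at 219 and 226 against 274 and 230, lower in both cKO libraries, with a change of -0.17 that did not pass (limma adjusted p 0.306) and turned to 0.14 after quantile normalization. Dnd1 was at 10.4 and 10.5 against 8.22 and 9.57 (limma adjusted p 0.535). Nanos3 was at 1.67 and 1.27 against 1.03 and 0.785, from 5 to 12 reads per library (limma adjusted p 0.469). For Ifitm3 the cKO libraries had 13.1 and 4.19 against 4.62 and 3.30, so the groups overlapped and 1 library set the mean (0.80, limma adjusted p 0.153). Without cKO replicate 2, which leaves the library at 13.1 alone, its change was 1.52. The other cKO library, at 4.19, lay between the 2 wildtype libraries.

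Markers of testis cell types moved with genotype. Of 9 spermatid markers 8 fell and none rose (median -0.57), and their sum was 21985 to 24707 in wildtype and 15740 to 16296 in cKO. Of 9 Sertoli cell markers 8 rose (sum 275 to 309 against 714 to 825), of 7 Leydig cell markers 7 rose (278 to 385 against 697 to 1102), of 11 spermatogonial markers 6 rose (167 to 181 against 244 to 262) and of 7 tested macrophage markers 4 rose (62.2 to 70.4 against 106 to 149.9, over 8 genes), and none of these lists had a marker that fell. Of 9 spermatocyte markers 2 rose and 1 fell (620.5 to 634 against 562 to 599). No marker of these lists was at 0. KIT is found on differentiating spermatogonia and on Leydig cells, and DAZL from spermatogonia to spermatocytes. Kitl, the ligand of KIT made by Sertoli cells, rose by 1.68 (limma adjusted p 0.000108), and Cxcl12, also from the niche, by 1.44 (limma adjusted p 0.00151). Of 7 tested fibroblast markers 4 rose and none fell, and of 7 peritubular and vascular markers 3 rose and 1 fell. The part of these cell types in the rise of Kit and Dazl was not tested.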

How the data were processed

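RNA-seq was deposited as 3 tables of gene values for 26 libraries. Reads were handled with Bowtie2 2.3.4.3, SAMtools 1.9, HTSeq 0.11.2 and edgeR 3.26.8 on build mm10, per the submitters' processing notes. The deposited per-library signal is, per the file headers and its values, CPM relative to a TMM-scaled library size. Within each library, values were whole multiples of a step of 0.0996 to 0.187, and dividing by it gave whole reads for 100.0% of values within 0.02. In 1 library, day 4 DMSO replicate 2, the step is too near 0.1 to tell from rounding. The log2 fold changes and the p-values and FDR of the authors' own comparisons were deposited beside them, per the file headers, and the test behind them is not given in the sources used here. Per the labels' protocols, a NuGEN Ovation kit was used for dTAG13 and testis RNA, and a Tecan Universal Plus kit for the overexpression lines.

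From these, limma 3.58.1 in R 4.3.3 was fitted with a mean-variance trend on log2(value + 1) to all libraries of a table, for genes with a mean of at least 1 (16605, 15255 and 20658 genes). Benjamini-Hochberg adjustment ran over all genes of a comparison, and adjusted p-values under 0.05 were called. The overexpression test had stage as a covariate, and the tests between stages of that table had line as a covariate, since the lines are the same at each stage. Same-numbered clones had correlations of deviations of -0.0472, 0.0884 and -0.0066 between successive stages. edgeR 4.0.16 and DESeq2 1.42.0 were run on the recovered reads as alternatives, besides other pseudocounts, filters and scalings and each library left out. Fits were tested on simulated data. Differences between libraries of 1 group exceeded counting error, with a chi-square per gene of 1.83 to 15.07. The highest value was that of day 4 DMSO, against 3.56 to 5.23 in the other groups of the dTAG13 experiment. Genes with reads numbered 23893 and 28687 in day 4 DMSO replicates 1 and 2. They numbered 23999 and 23860 in day 2 DMSO and 26078 to 28809 in the dTAG13 libraries. Positions are from GENCODE M21 and promoters from RefSeq.

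The 10 genes, the pathway and marker lists and the tests were chosen with earlier results of these data known. The 10 genes are reported for every comparison of groups in which they were read, and for the tests of differences between effects those called. From the lists, counts are given for the comparisons they bear on and, by name, some of the 3 called genes with the largest change whose groups do not overlap. Tex10 and Xist are given beside them, as checks of the labels.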

Additional observations from a re-analysis of the deposited data

Results flagged for a closer look

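For Tfap2c the effect of dTAG13 differed between days, being larger by 1.09 on the log2 scale at day 4 than at day 2 (limma adjusted p 0.0351). This call was lost in 7 of the 8 fits that left out 1 library. It was also lost with a pseudocount of 0.1, no filter on low genes or no variance trend (limma adjusted p 0.101, 0.299 and 0.282). Without the trend 0 of all 16605 genes were called. With edgeR and DESeq2 the call on Tfap2c was made (adjusted p 0.0049 and 8.71e-06). In the overexpression clones, 4 genes were called in the test of whether the difference from the empty-vector line was another at the PGCLC stages than in EpiLCs, Dazl by 1.45, Ifitm3 by 1.05, Prdm14 by 0.83 and Tfap2c by -1.23 (limma adjusted p 0.000412, 2.33e-05, 0.0459 and 2.33e-05). That contrast rests on 1 empty-vector library in EpiLCs, with 5 reads for Tfap2c, and its p-values hold only if that library varies like the pairs of clones. Without the variance trend none of the 4 was called, nor was any other of the 15255 genes. With edgeR 2 of the 4 were called, and with DESeq2 1. At the step from EpiLCs to day 2 the log2 difference of Dnd1 was -0.64 in the control cells of the dTAG13 experiment and 0.18 in the 3 lines of the overexpression experiment, and that of Ddx4 was 0.69 in the former and -0.54 in the latter, each in opposite directions. The difference between the experiments was not tested for either gene, and the library kit differs between them.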

How the results depend on the processing

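Of 1338 values of single genes under alternatives, 1236 kept their direction and their side of the threshold, 65 lost the call, 7 gained it and 30 changed sign. None of the values that changed sign was called on the main settings. Of 47 called values 17 lost the call at least once, 15 when limma was run without its trend and 11 when low genes were kept. Values without an adjusted p from DESeq2 are left out. The number of the 10 genes called moved by over 1.5 times as follows. From day 2 to day 4 with DMSO it was 2, and 1 with no filter or no trend and 1 to 2 with each library left out. For the difference of dTAG13 between days it was 1, 0 with a pseudocount of 0.1, no filter or no trend, and 0 to 1 with each library left out. For overexpression it was 3, 1 without the trend and 1 to 2 with each clone left out. For PGCLC stages against EpiLCs in the clones it was 4, 2 with no filter, 0 without the trend, 2 with edgeR and 1 with DESeq2 (no adjusted p for Prdm14 and Dazl), and fits without a clone had no residual degrees of freedom. From day 2 to day 4 in the lines it was 5 and 2 without the trend. From day 4 to day 6 it was 2, 0 with no filter, no trend, DESeq2 or no replicate block, and 1 to 3 with each line left out. Smaller moves were from 6 to 4 or 5 for dTAG13 at day 2 and from 9 to 8 for EpiLCs to day 2 in the lines. Without the trend no gene at all was called for the difference between days or for PGCLC stages against EpiLCs. The cause of the changes in these counts was not tested.

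With the replicate number as a replicate block the counts were 7 for EpiLCs to day 2, 2 for day 2 to day 4, 6 and 6 for dTAG13 at day 2 and day 4, 1 for their difference and 2 for testis, the same as without it. Same-numbered libraries had correlations of deviations of 0.118, 0.0927, -0.0246, -0.0686 and 0.116, so the numbers were not taken to pair them. Without line as a block the counts in the lines were 9, 4 and 0.

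Signs changed for uncalled values, whose cause was not tested. Ddx4 from day 2 to day 4 with DMSO was -0.012 with median-ratio scaling, -0.015 with edgeR and -0.016 with DESeq2. Dnd1 with dTAG13 at day 4 was -0.0033 with a pseudocount of 0.1 and -0.022 after quantile normalization. In the clones, Tfap2c was -0.0011 after quantile normalization, -0.25 with edgeR, -0.11 with DESeq2 and -0.29 over PGCLC stages alone, where Prdm14 was 0.075. Ddx4 in cKO testis was 0.14 after quantile normalization. With each library left out, values from day 2 to day 4 with DMSO ran from -0.30 to 0.031 for Prdm1, from -0.019 to 0.32 for Dnd1, from -0.55 to 0.018 for Ifitm3, from -0.071 to 0.28 for Ifitm1 and from -0.077 to 0.12 for Ddx4. With dTAG13 they ran from -0.039 to 0.43 for Dazl at day 2 and from -0.35 to 0.37 for Dnd1 at day 4. The difference between days ran from -0.52 to 0.13 for Prdm14, from -0.54 to 0.073 for Nanos3, from -0.65 to 0.024 for Kit and from -0.033 to 0.53 for Ifitm3. In the clones Ddx4 ran from -0.030 to 0.11. With a clone left out, values from day 2 to day 4 of the lines ran from -0.14 to 0.030 for Prdm1, from -0.027 to 0.0052 for Prdm14 and from -0.40 to 0.089 for Nanos3, and Dnd1 from day 4 to day 6 from -0.019 to 0.21. Without the empty-vector line Nanos3 from day 2 to day 4 was 0.0078 and Prdm14 from day 4 to day 6 -0.012. Few reads limit the precision for Nanos3, Dnd1 and Ddx4, which are low in cultured cells.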
